A study of Mus musculus with 12 samples.

Results

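The 9 genes described here encode transcription factors that pattern the dorsal forebrain, the part of the embryonic brain that gives rise to cortex and hippocampus. They are *Emx1*, *Emx2*, *Lhx2*, *Lhx9*, *Pax6*, *Nr2f1*, *Nr2f2*, *Zbtb20* and *Meis2*, chosen by name among the 27998 genes of the single-cell count files and matched by Entrez identifier in the neurosphere count table. All 9 were found in both. The values of each were followed across cell classes of the P7 mouse dentate gyrus, across 3 *Larp7* genotypes, and in cultured dentate gyrus cells with and without *Larp7*.

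Early in development, opposing signals from the midline and the flanks of the forebrain set graded levels of these factors, and the levels in turn help decide whether a progenitor makes neocortex, hippocampus or choroid plexus. *Emx2* and *Nr2f1* are best known for shaping the cortical area map, *Lhx2* for holding cortical identity against the cortical hem, and *Zbtb20* for hippocampal identity. Several of them stay on after birth in the dentate gyrus, the hippocampal subfield that keeps making granule neurons from radial glia-like cells (RGLs) through neuronal intermediate progenitor cells (nIPCs) and neuroblasts.

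The paralogs *Emx1* and *Emx2* are shown by their promoters, since the Emx1-Cre allele used in the study lies at one of these loci and not at the other. *Emx1* lies at chr6:85187931-85204463 on the plus strand and *Emx2* at chr19:59458690-59465357 on the plus strand (GRCm38.p6). The RefSeq windows below reach from 250 bases before to 50 bases after the annotated start, at chr6:85187681-85187980 and chr19:59458440-59458739. Capitals mark every match, on either strand, to 1 of 4 short motifs. These are the GC box, spelled GGGCGG, the CCAAT box, the TATA box, spelled TATAAA, and the homeodomain core, spelled TAATTA.
Emx1: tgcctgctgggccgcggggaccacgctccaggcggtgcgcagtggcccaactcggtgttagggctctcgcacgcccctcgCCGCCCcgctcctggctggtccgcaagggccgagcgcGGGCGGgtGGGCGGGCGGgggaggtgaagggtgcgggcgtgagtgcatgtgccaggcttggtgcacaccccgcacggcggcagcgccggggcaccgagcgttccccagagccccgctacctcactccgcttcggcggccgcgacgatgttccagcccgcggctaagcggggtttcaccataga
Emx2: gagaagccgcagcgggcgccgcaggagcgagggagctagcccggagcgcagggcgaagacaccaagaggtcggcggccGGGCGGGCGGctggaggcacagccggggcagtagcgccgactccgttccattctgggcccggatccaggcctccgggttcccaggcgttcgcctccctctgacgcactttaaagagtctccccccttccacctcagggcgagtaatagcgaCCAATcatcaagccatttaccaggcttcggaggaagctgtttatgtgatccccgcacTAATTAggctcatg
The *Emx1* window held 4 GC box matches, some of them overlapping, and a GC content of 74.0%. The *Emx2* window held 2 overlapping GC box matches, 1 CCAAT box and 1 homeodomain core at 64.3% GC. Of all 32851 RefSeq windows of this length, 35.7% held a GC box match, 37.4% a CCAAT box, 13.6% a TATA box and 5.29% a homeodomain core. Among the 12 windows of the 9 genes, 4 held a GC box match, 6 a CCAAT box, 1 a TATA box and 1 a homeodomain core, and their median GC content was 57.0% against 52.7% over all windows. A match of letters describes the window and is no evidence of binding.

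The single-cell data came from 3 libraries of microdissected P7 dentate gyrus, 1 per genotype, each pooled from several littermates. The wild-type library was from *Larp7*-floxed mice without Cre, the second from *Larp7* f/f;nestin-Cre mice and the last from *Larp7* f/f;Emx1-Cre mice, so all 3 carried the floxed *Larp7* allele. Nestin-Cre is a transgene active in the developing central nervous system, while Emx1-Cre is a Cre inserted at the *Emx1* gene itself and acts in the pallial lineage. The sources used here do not say how many *Emx1* alleles carried Cre. For both mutant libraries the sample title and the genotype entry in the labels name opposite Cre lines. The title was followed, and every statement on the nestin-Cre or the Emx1-Cre library concerns the library so titled. The bulk data were 2 wild-type and 3 *Larp7* f/f;Emx1-Cre neurosphere cultures from P1 dentate gyrus after 2 days of differentiation with 20 ng/ml bFGF. With 1 library per genotype no test between the P7 genotypes was possible, and the 95% intervals given for them cover counting error only.

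A cell was assigned to a class when UMIs of at least 3 markers of that class were present and of more of them than of any other class. None of the 9 genes was a marker. At the thresholds stated by the study, 10997, 6685 and 6531 cells were kept in the wild-type, nestin-Cre and Emx1-Cre libraries. Of these, 71.5%, 84.9% and 84.6% were assigned. The study reports more cells after quality control for each library, most of all for the wild-type, so the set of cells here is not its own. Median UMIs per cell were 1782, 3644 and 3873, lowest in the wild-type library. The paper reports more genes and more mRNA per cell in mutant cells. Whether the lower wild-type UMIs reflect sequencing depth or RNA content was not tested. RGL-gated cells carried a median of 5, 6 and 6 RGL markers but also 3, 4 and 4 astrocyte markers. The nIPC-gated cells carried 6, 6 and 7 nIPC and 3, 4 and 4 neuroblast markers. The RGL and astrocyte panels share *Slc1a3*, *Sox9* and *Fabp7*, which count towards both. The medians of that pair therefore cannot show that the classes shade into each other. The nIPC and neuroblast panels share no gene, so nIPC-gated cells did carry markers of another panel. The source of these neuroblast markers was not tested. Many assignments were narrow. A lead of only 1 marker was held by 67.8%, 45.4% and 49.9% of RGL-gated cells. The same lead was held by 43.4%, 41.6% and 36.9% of nIPC-gated cells. Marker sets of unrelated lineages were met by 11.4%, 11.2% and 13.2% of cells. The pairs of libraries shared between 11 and 23 barcodes. *Larp7*, the targeted gene, was at 82.4, 12.8 and 16.6 CPM in nIPC-gated cells of the wild-type, nestin-Cre and Emx1-Cre libraries (CPM, the UMIs of a gene scaled to a common total of UMIs for each class and library). The same order, with wild-type highest, was seen in RGL-gated (68.2, 10.7 and 11.5 CPM) and neuroblast-gated cells (52.2, 11.4 and 11.8 CPM). Microglia-gated cells, which lie outside both Cre lineages, had 63.6, 35.6 and 40.5 CPM. The tags come from transcript ends and do not read the deleted exon itself.

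Each of the 9 genes kept a recognisable place in the gated classes. Across RGL-, nIPC-, neuroblast-, astrocyte-, oligodendrocyte precursor (OPC)- and microglia-gated cells, the 6 classes with at least 50 cells in every library, 8 of 9 genes had the same highest class in all 3 libraries. *Pax6* and *Emx2* were highest in RGL-gated cells, *Lhx2*, *Lhx9* and *Nr2f2* in nIPC-gated cells, *Zbtb20* in neuroblast-gated cells, *Nr2f1* in astrocyte-gated cells and *Meis2* in OPC-gated cells. Not all of these peaks were clear of the next class. RGL and nIPC intervals overlapped for *Emx2* in the wild-type and Emx1-Cre libraries and for *Nr2f2* in the wild-type library. The highest and next class also overlapped for *Lhx9* in the wild-type library and for *Nr2f1* in both mutant libraries. *Emx1* was highest in nIPC-gated cells of the wild-type library and in neuroblast-gated cells of both mutant libraries, and its intervals in these classes overlapped each time. Microglia do not derive from the forebrain neuroepithelium, so their values were taken as a background level. Free RNA, doublets and expression in microglia themselves were not separated in these values. In microglia-gated cells 8 of the 9 genes, *Nr2f2* being the exception, were highest in the wild-type library. The part of free RNA in the differences between genotypes was not tested. A median of 3 of the 9 genes was detected per RGL- or nIPC-gated cell thinned to 1500 UMIs, and 0 per microglia-gated cell.

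**Figure D1:**
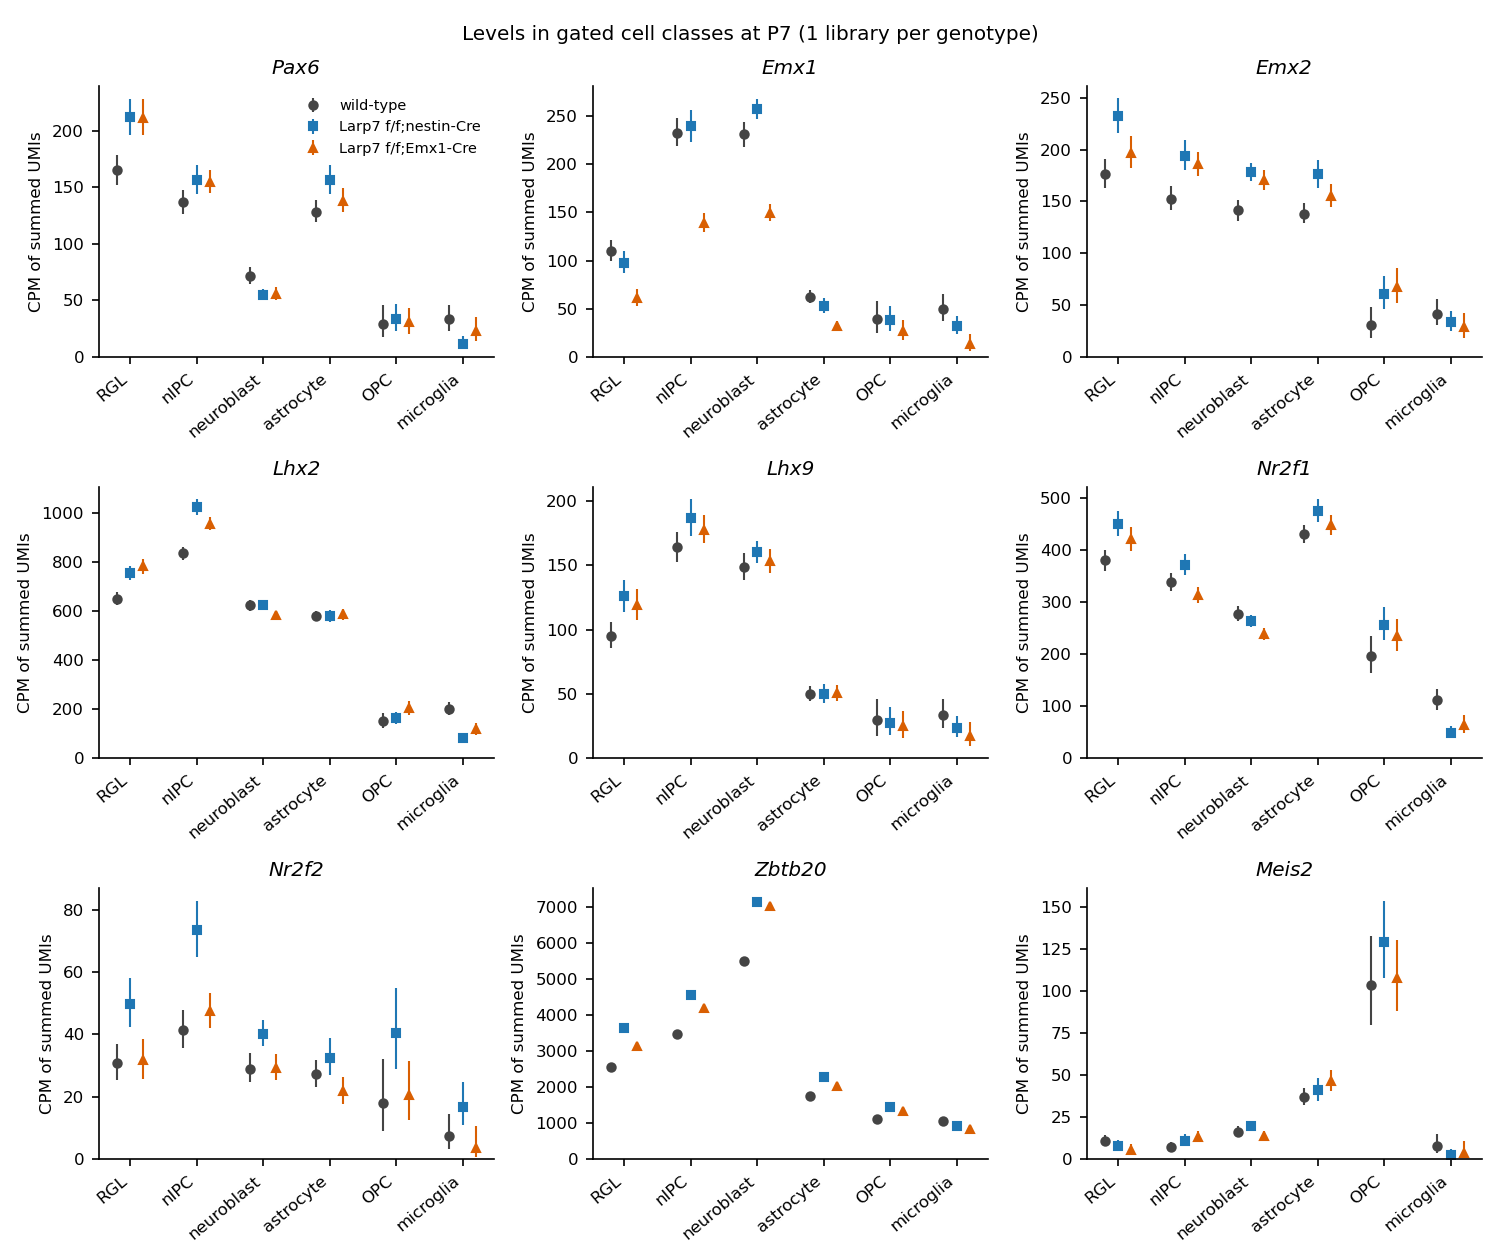
Level of each of the 9 genes (CPM, linear axis from 0, scaled for each gene) in the 6 gated classes, with 1 point per library and bars for 95% exact Poisson intervals. The *Meis2* points are highest in OPC-gated cells and the *Zbtb20* points in neuroblast-gated cells of every library, while *Emx1* points of the Emx1-Cre library lie under those of the other libraries.

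*Emx1*, a homeobox gene of the pallium, set the Emx1-Cre library apart. In nIPC-gated cells it was at 233 CPM (219 to 248) in the wild-type library. The nestin-Cre library had 239 CPM (224 to 256) and the Emx1-Cre library 139 CPM (129 to 149). Only the Emx1-Cre library lay lower, and its interval did not meet theirs. In RGL-gated cells *Emx1* was at 110.1, 98.0 and 61.0 CPM, in neuroblast-gated cells at 231, 258 and 149.9 CPM and in astrocyte-gated cells at 62.6, 52.9 and 32.2 CPM. The Emx1-Cre to wild-type ratio was 0.555 (0.464 to 0.661) in RGL-, 0.596 (0.542 to 0.654) in nIPC-, 0.649 (0.597 to 0.705) in neuroblast- and 0.514 (0.423 to 0.623) in astrocyte-gated cells. The nestin-Cre to wild-type ratios in the same order were 0.890, 1.03, 1.11 and 0.845, although *Larp7* was low in both mutant libraries. Against the nestin-Cre library, the Emx1-Cre library stood at 0.623, 0.580, 0.582 and 0.608. Within the Emx1-Cre library, *Larp7* loss and the Cre inserted at *Emx1* cannot be told apart. Along the lineage *Emx1* was higher at the later stage in every library, from 110.1 CPM in RGL-gated to 231 CPM in neuroblast-gated cells of the wild-type. The mean log2 ratio of neuroblast- over RGL-gated cells was 1.25 ± 0.17 (SD, n = 3 libraries). Each library is of a different genotype, so SDs over libraries, here and below, are no spread between replicates.

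The share of cells with an *Emx1* UMI followed the levels. In nIPC-gated cells thinned to 1500 UMIs it was 27.8% in the wild-type, 31.2% in the nestin-Cre and 17.5% in the Emx1-Cre library (52.3%, 64.0% and 45.8% before thinning). Thinning left out 162, 11 and 13 shallower nIPC-gated cells. In thinned microglia-gated cells the shares were 4.63%, 4.09% and 0.943% (9.90%, 8.19% and 3.56% before). Median depths before thinning were 3702, 4542 and 4594 UMIs in nIPC-gated and 2438.5, 3269 and 3212 UMIs in microglia-gated cells. Thus *Emx1* shares in nIPC-gated cells stood above the microglia background in every library.

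*Emx2*, its paralog and a regulator of hippocampal growth, had a flatter profile. It was at 177, 232 and 197 CPM in RGL-gated, 153, 194 and 186 CPM in nIPC-gated, 141, 178 and 170.5 CPM in neuroblast-gated and 138, 176 and 155 CPM in astrocyte-gated cells of the wild-type, nestin-Cre and Emx1-Cre libraries. OPC-gated cells had 30.9, 60.7 and 67.2 CPM and microglia-gated cells 41.5, 33.6 and 28.6 CPM. *Emx2* was thus present through the whole granule lineage, and neighbours in its order of classes from nIPC to astrocyte overlapped in every library. Nestin-Cre to wild-type ratios lay between 1.26 and 1.32 and Emx1-Cre to wild-type ratios between 1.12 and 1.22 over the 4 neural classes compared, all under the 1.5-fold rule. *Emx2* was not lower where *Emx1* was, and its ratio in nIPC-gated cells of the Emx1-Cre library was 1.22 (1.10 to 1.34).

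*Lhx2* and *Lhx9* encode LIM-homeodomain factors. *Lhx2* was at 651, 755 and 783 CPM in RGL-gated cells, 836, 1024 and 957 CPM in nIPC-gated cells, 623, 624 and 582 CPM in neuroblast-gated cells and 582, 579 and 587 CPM in astrocyte-gated cells. Its peak in nIPC-gated cells did not overlap with any other class in any library. Microglia-gated cells had 199, 81.3 and 117 CPM, which puts the wild-type background well over that of the mutants. *Lhx9* followed the same nIPC peak but rested on the neuronal side, with 164, 187 and 178 CPM in nIPC-gated and 149, 161 and 153 CPM in neuroblast-gated cells against 95.1, 126 and 119 CPM in RGL-gated and 49.6, 49.6 and 50.3 CPM in astrocyte-gated cells. In the wild-type library its nIPC and neuroblast intervals overlapped, as did those of astrocytes and microglia (33.2 CPM). Neither gene met the 1.5-fold rule between genotypes in the 4 neural classes. In microglia-gated cells *Lhx2* did, at 0.408 (0.324 to 0.513) of wild-type in the nestin-Cre and 0.587 (0.457 to 0.749) in the Emx1-Cre library. Over the neural classes the ratio to wild-type farthest from 1 was that of *Lhx9* in RGL-gated cells, 1.33 (1.14 to 1.54) in the nestin-Cre and 1.25 (1.08 to 1.46) in the Emx1-Cre library over wild-type. In RGL-gated cells thinned to 1500 UMIs with their gate kept, the nestin-Cre log2 ratio of *Lhx9* was 0.62, past 1.5-fold. That setting left out 647 wild-type and 48 nestin-Cre RGL-gated cells under 1500 UMIs.

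*Pax6*, a paired-box factor of cortical progenitors, was lower at each later stage of the lineage. It was at 165, 212 and 212 CPM in RGL-gated cells, 137, 156 and 154 CPM in nIPC-gated cells and 71.7, 54.7 and 55.8 CPM in neuroblast-gated cells, with 128, 156 and 138 CPM in astrocyte-gated cells. Neuroblast- over RGL-gated cells gave a mean log2 ratio of -1.69 ± 0.42 (SD, n = 3 libraries, 1 per genotype). The step between these stages was larger in both mutants than in the wild-type library. In RGL-gated cells the nestin-Cre and Emx1-Cre libraries stood at 1.28 and 1.28 of wild-type, and in neuroblast-gated cells at 0.763 (0.666 to 0.875) and 0.779 (0.675 to 0.899). None of these reached 1.5-fold, and both share the wild-type library, whose *Pax6* level in microglia-gated cells was 33.2 CPM against 11.4 and 22.6 CPM. The RGL log2 ratios of 0.36 in both mutants were 0.17 and 0.27 in cells thinned to 1500 UMIs with their gate kept. They were 0.16 and 0.12 when the thinned cells were gated again. Thinning left out 647, 48 and 48 RGL-gated cells under 1500 UMIs in the wild-type, nestin-Cre and Emx1-Cre libraries. The wild-type class thus changed most, and depth and the choice of cells were not separated.

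*Nr2f1* and *Nr2f2* encode the orphan nuclear receptors COUP-TFI and COUP-TFII. *Nr2f1* was at 430.2, 476 and 448 CPM in astrocyte-gated and 380.4, 451 and 421 CPM in RGL-gated cells, then 338, 371 and 314 CPM in nIPC-gated, 278, 263 and 239 CPM in neuroblast-gated and 197, 257 and 235 CPM in OPC-gated cells. This order from glia to neuroblast was the same in every library, though the 2 highest classes overlapped in both mutants. *Nr2f2* was scarce in the lineage, with 30.8, 49.8 and 31.6 CPM in RGL-gated, 41.5, 73.5 and 47.4 CPM in nIPC-gated, 29.0, 40.2 and 29.3 CPM in neuroblast-gated and 27.2, 32.4 and 21.7 CPM in astrocyte-gated cells. The nestin-Cre library was the highest in each of these classes. Its ratio to wild-type was 1.62 (1.26 to 2.08) in RGL-gated and 1.77 (1.46 to 2.15) in nIPC-gated cells, while the Emx1-Cre library stood at 1.03 and 1.14. When cells were thinned to 1500 UMIs with their gate kept, the RGL log2 ratio of the nestin-Cre library went from 0.69 to 0.47, under 1.5-fold, and that of nIPC-gated cells from 0.82 to 0.80. When the thinned cells were gated again, which changes the cells of each class, the values were 0.04 and 0.58, both under 1.5-fold. The *Nr2f2* level in microglia-gated cells was 7.37, 16.8 and 3.58 CPM, also highest in the nestin-Cre library.

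In both mutant libraries *Nr2f2* was most abundant in Cajal-Retzius-gated cells, the reelin-secreting neurons of the hippocampal fissure. These numbered 6, 74 and 18 cells in the wild-type, nestin-Cre and Emx1-Cre libraries and gave 145 CPM (17.5 to 523), 725 CPM (644 to 813) and 534 CPM (405 to 690.2). The more numerous Cajal-Retzius-gated cells of the nestin-Cre library stand beside its raised *Nr2f2* in other classes, and whether their RNA contributes to it was not tested. Endothelial-gated cells (187, 38 and 137 cells) had 76.5, 76.5 and 85.6 CPM, the 37, 8 and 35 mural-gated cells 181, 214 and 173 CPM, and the 27, 14 and 7 leptomeningeal-gated cells 185, 251 and 399 CPM. The wild-type Cajal-Retzius value rests on 2 UMIs, and its interval holds the wild-type values of all these classes. In the Emx1-Cre library the leptomeningeal value rests on 15 UMIs. Its interval (223 to 657) overlapped with that of Cajal-Retzius-gated cells, so the order of these classes is not resolved there. The same Cajal-Retzius-gated cells held *Emx2* at 426 CPM (364 to 494) in the nestin-Cre and 451 CPM (334 to 596) in the Emx1-Cre library, above its level in every class of the lineage there. The wild-type value was 434 CPM (159 to 945), from 6 UMIs, and its interval overlapped with that of RGL-gated cells. In contrast, *Meis2* had 0 UMIs in the 74 Cajal-Retzius-gated nestin-Cre cells, where 3 UMIs correspond to 7.42 CPM. These small classes were chosen after their values were seen.

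*Zbtb20*, a zinc-finger factor of hippocampal neurons, was higher at each later stage. It was at 2552, 3626 and 3131 CPM in RGL-gated, 3481, 4546 and 4204 CPM in nIPC-gated and 5513, 7154 and 7034 CPM in neuroblast-gated cells, with 1759, 2264 and 2037 CPM in astrocyte-gated cells. The neuroblast over RGL log2 ratio was 1.09 ± 0.096 (SD, n = 3 libraries, 1 per genotype), and in both mutant libraries no neighbouring classes overlapped. Of thinned wild-type neuroblast-gated cells 99.7% had a *Zbtb20* UMI, against 38.4% of microglia-gated cells. Both mutants exceeded wild-type in all 4 neural classes. Nestin-Cre to wild-type ratios ran from 1.29 in astrocyte-gated to 1.42 in RGL-gated cells, and Emx1-Cre to wild-type ratios from 1.16 in astrocyte-gated to 1.28 in neuroblast-gated cells. All were under 1.5-fold, and the microglia level went the other way (1049, 926 and 821 CPM).

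*Meis2*, a TALE homeodomain cofactor known from interneurons and the striatum, was low in the granule lineage. OPC-gated cells had 104, 129 and 108 CPM and astrocyte-gated cells 36.9, 41.0 and 46.4 CPM. RGL-gated cells had 10.5, 7.56 and 5.43 CPM, nIPC-gated cells 7.00, 10.6 and 13.1 CPM and neuroblast-gated cells 16.0, 19.4 and 13.4 CPM. Microglia-gated cells had 7.37, 2.01 and 3.58 CPM, and these intervals overlapped with those of RGL-gated cells in every library. The 23 GABAergic-gated cells of each mutant library had 209 CPM (131 to 316) in the nestin-Cre and 93.0 CPM (42.5 to 177) in the Emx1-Cre library, and the 3 wild-type ones had 0 UMIs, where 3 UMIs correspond to 315 CPM. In nIPC-gated cells the Emx1-Cre library stood at 1.87 (1.22 to 2.95) of wild-type. That value passed the rule of size, but the wild-type level was no higher than in microglia-gated cells. The log2 ratio of 0.90 was -0.010 in cells thinned to 1500 UMIs with their gate kept and 0.40 when the thinned cells were gated again.

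Counted over the 4 neural classes, few of the 9 genes differed between libraries by the rule of size, at least 1.5-fold with at least 100 UMIs in both libraries together. In nestin-Cre over wild-type, 1 of 8 genes with enough UMIs passed in RGL-gated cells (*Nr2f2* higher) where 10.4% of all genes measured did. In nIPC-gated cells 1 of 8 passed (*Nr2f2* higher, 11.0% of all genes), in neuroblast-gated cells 0 of 9 (19.8%) and in astrocyte-gated cells 0 of 9 (9.12%). In Emx1-Cre over wild-type, 1 of 8 passed in RGL-gated cells (*Emx1* lower, 6.15% of all genes) and 2 of 9 in nIPC-gated cells (*Emx1* lower and *Meis2* higher, 6.34%). There, neuroblast-gated cells gave 1 of 9 (*Emx1* lower, 12.4%) and astrocyte-gated cells 1 of 9 (*Emx1* lower, 6.17%). Between the mutant libraries, Emx1-Cre over nestin-Cre, the counts were 2 of 8 in RGL-gated cells (*Emx1* and *Nr2f2* lower, 2.08% of all genes) and 2 of 9 in nIPC-gated cells (the same genes, 2.30%). They were 1 of 9 in neuroblast-gated (*Emx1*, 3.27%) and 1 of 9 in astrocyte-gated cells (*Emx1*, 1.86%). *Emx1* was thus the one gene of the 9 that passed in all 4 classes of a comparison, and it did so in both comparisons that hold the Emx1-Cre library. Its call in RGL-gated cells against the nestin-Cre library was lost, at log2 ratios of -0.58 in thinned cells with their gate kept and -0.49 in thinned cells gated again, and also as a mean over cells. In astrocyte-gated cells that comparison lost its *Emx1* call in thinned cells with their gate kept. Astrocyte-gated cells were added to this comparison after their values were seen.

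**Figure D2:**
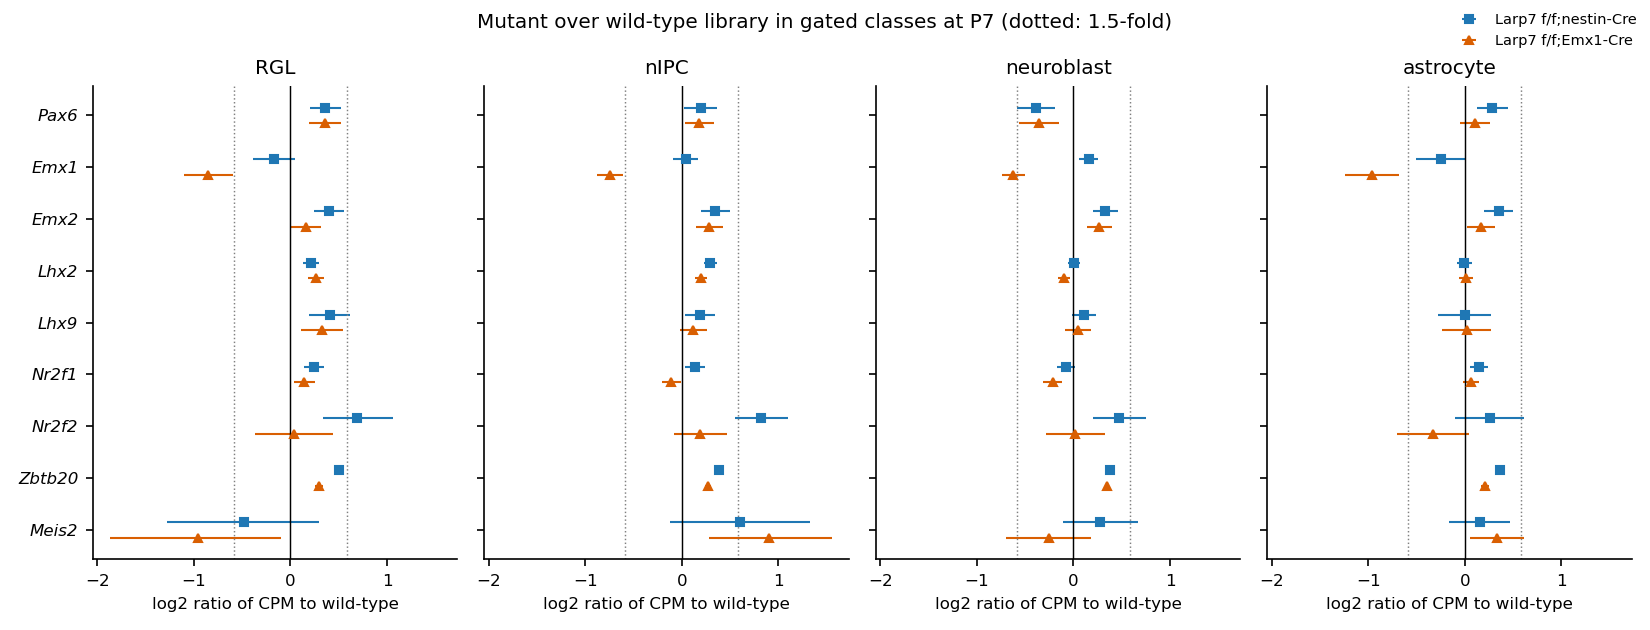
Ratio of each mutant library to the wild-type library (log2, with 95% exact conditional intervals for counting error) for the 9 genes in RGL-, nIPC-, neuroblast- and astrocyte-gated cells, with lines at 1.5-fold. *Emx1* lies beyond the lower line in every class of the Emx1-Cre library, at log2 -0.85, -0.75, -0.62 and -0.96, and near 0 in the nestin-Cre library.

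Within the neuroblast-gated class *Zbtb20* was higher, and *Pax6* and *Lhx2* lower, in cells with more granule neuron markers. These subsets were chosen after values were seen. Neuroblast-gated cells, thinned to 1500 UMIs, were divided by whether 0, 1 or at least 2 granule neuron markers had a UMI. *Zbtb20* was at 4794, 5779 and 6779 CPM across these subsets in the wild-type, 6151, 7123 and 7745 CPM in the nestin-Cre and 6243, 6926 and 7474 CPM in the Emx1-Cre library, higher with more markers in each. *Lhx2* was lower with more markers in each, with 757, 606 and 483 CPM, 934, 602 and 478 CPM and 829, 632 and 399.6 CPM. *Pax6* was likewise lower, from 86.9 to 54.4 CPM in the wild-type, 85.7 to 33.1 CPM in the nestin-Cre and 83.1 to 41.9 CPM in the Emx1-Cre library. In cells without granule markers *Pax6* thus stood at nearly one level in the 3 libraries. *Emx1* was lower in the Emx1-Cre library in every subset, at 170.2, 178 and 135 CPM against 280.1, 240.3 and 206 CPM in the wild-type and 278, 267 and 234 CPM in the nestin-Cre library. So *Emx1*, though higher in neuroblast- than in RGL-gated cells, was lower with at least 2 markers than with none. Its counting intervals in these 2 subsets overlapped in every library, and in the Emx1-Cre library it was highest with 1 marker. *Nr2f1* began alike, at 303, 300.1 and 306 CPM without markers, and with at least 2 was at 286 CPM in the wild-type against 215 and 217 CPM in the mutants. The subset without granule markers held 445, 451 and 329 cells and that with at least 2 held 392, 987 and 684 cells. The thinned neuroblast-gated cells of the mutants were thus weighted to cells with more of these markers. Thinning had left out 831, 171 and 134 neuroblast-gated cells under 1500 UMIs in the wild-type, nestin-Cre and Emx1-Cre libraries. Whether the whole classes differ in this way was not tested.

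**Figure D3:**
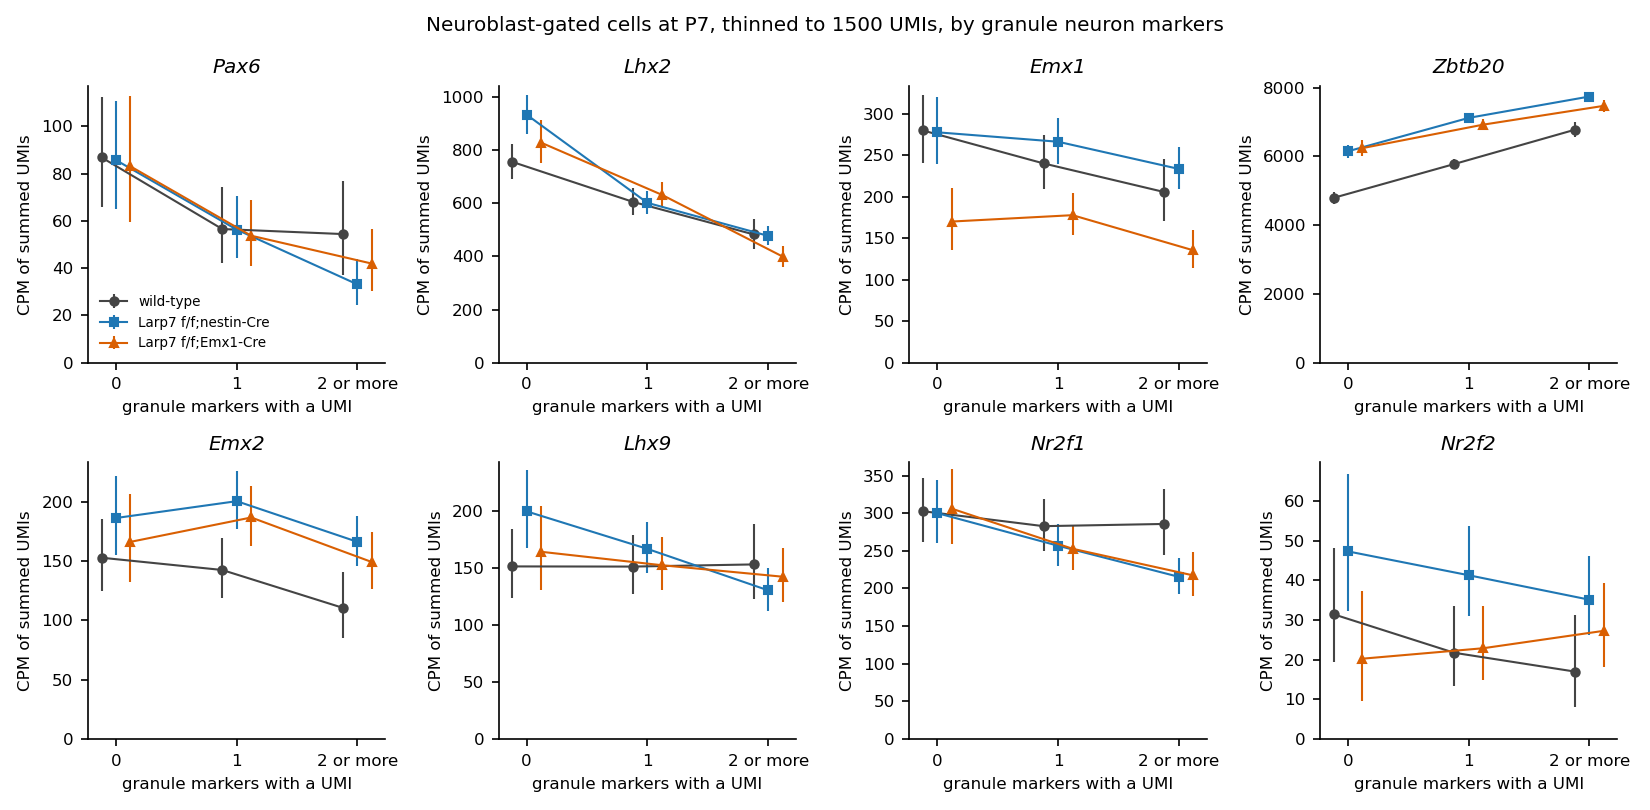
Levels (CPM, thinned cells) of 8 of the genes, *Meis2* left out, in neuroblast-gated cells with 0, 1 or at least 2 granule neuron markers, 1 line per library, with bars for 95% exact Poisson intervals. From left to right *Zbtb20* goes up and *Lhx2* goes down in all 3 libraries, and *Emx1* of the Emx1-Cre library lies lowest throughout.

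Thinned nIPC-gated cells were divided in the same way by whether *Mki67* or *Top2a*, genes of dividing cells, had a UMI. At this depth a cell without such a UMI is not shown to be non-dividing. *Pax6* was higher in the cells with such UMIs in each library, with 86.1 CPM without and 205 CPM with them in the wild-type, 126 CPM without and 217 CPM with in the nestin-Cre and 126 CPM without and 182 CPM with in the Emx1-Cre library. *Zbtb20* was lower in the cells with such UMIs, with 3922 CPM without and 3141 CPM with, 4919 CPM without and 3903 CPM with and 4593 CPM without and 3699.9 CPM with in the same order. *Emx1* showed 255 CPM without and 199.7 CPM with, 284 CPM without and 219.7 CPM with and 140.1 CPM without and 129.8 CPM with. Hence *Emx1* in the Emx1-Cre library was below that of the other libraries in nIPC-gated cells with and without *Mki67* or *Top2a* UMIs alike.

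The genes with the most similar profiles were found by Pearson correlation of log2(CPM + 10) over the 18 profiles of 6 classes and 3 libraries among 10986 genes. The profiles share libraries, depth and base composition, and the values are descriptions without a test. *Pax6* was closest to *Zic2* (r = 0.973), *Emx1* to *Cplx2* (r = 0.947), *Emx2* to *Kcnn2* (r = 0.971) and *Lhx2* to *Kif21a* (r = 0.985). *Lhx9* was closest to *Rmst* (r = 0.977), *Nr2f1* to *Pou3f3* (r = 0.981), *Zbtb20* to *Celf2* (r = 0.979) and *Meis2* to *Dner* (r = 0.978). *Nr2f2* had the loosest match, 3110039M20Rik (r = 0.902). The next closest were *Sept11* and *Emc8* for *Pax6*, *Igsf8* and *Bcl11a* for *Emx1*, *Tead1* and *Fzd1* for *Emx2*, and *Tead1* and *Trim2* for *Lhx2*. They were *Nedd4l* and *Csrp2* for *Lhx9*, Gm3764 and *Gstm5* for *Nr2f1*, *Trim37* and *Eml5* for *Nr2f2*, *Nfib* and *Rnd3* for *Zbtb20*, and *Lrp1b* and *Plpp4* for *Meis2*. Among the 9 genes themselves the closest pairs were *Emx2* with *Lhx2* (r = 0.960), *Lhx9* with *Zbtb20* (r = 0.945) and *Emx1* with *Lhx9* (r = 0.927), and the most opposed was *Lhx9* with *Meis2* (r = -0.399).

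In neurospheres at day 2 of differentiation the same factors did not separate the genotypes. *Larp7* was at 42.8 and 35.0 CPM in the wild-type cultures and 4.17, 6.35 and 4.39 CPM in the knockout cultures (edgeR quasi-likelihood test with Benjamini-Hochberg adjustment, log2 fold change -2.97, SE 0.21, adjusted p = 0.0198), so that *Larp7* was lower in the cultures labelled knockout. Nothing in the labels says whether the cultures came from separate animals, so the p-values measure the spread between these samples. In bulk RNA, fewer cells of a type and less RNA per cell cannot be told apart. Of the 9 genes 8 were tested, and 0 passed an adjusted p of 0.05 with edgeR, where 0.0338% of the 17753 genes tested did (6 genes). Also 0 of the 8 had an unadjusted p under 0.05, against 21.7% of all genes, and 0 passed with DESeq2, which called 1785 genes. The CPM of the 2 groups overlapped for all 8, while 42.6% of all genes did not overlap. Their median log2 fold change was -0.07 against 0.01 over all genes tested, with 3 of 8 positive.

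*Emx1* was almost silent in these cultures, with counts of 0 and 10 in the wild-type and 0, 0 and 0 in the knockout libraries of 59821311 to 62474602 reads, and was left out by the filter on low counts. Its paralog *Emx2* was present at 23.9 and 26.3 CPM in the wild-type cultures and 21.9, 23.1 and 24.6 CPM in the knockout cultures, and the groups overlapped (log2 fold change -0.11, SE 0.10, adjusted p = 0.547). The difference in *Emx1* seen between gated P7 cells therefore could not be examined in the cultures. *Pax6* was at 28.6 and 30.6 CPM in the wild-type cultures and 32.9, 26.8 and 23.6 CPM in the knockout cultures (log2 fold change -0.09, SE 0.15, adjusted p = 0.753). *Lhx2* was at 49.4 and 35.3 CPM in the wild-type cultures and 37.6, 42.3 and 51.7 CPM in the knockout cultures (log2 fold change 0.05, SE 0.19, adjusted p = 0.903), and the wild-type cultures spanned most of the range. *Lhx9* was barely detected, at 0.465 and 0.348 CPM in the wild-type cultures and 0.605, 0.373 and 0.525 CPM in the knockout cultures (log2 fold change 0.30, SE 0.48, adjusted p = 0.751).

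*Nr2f1* was at 109.5 and 125 CPM in the wild-type cultures and 129, 105 and 106 CPM in the knockout cultures (log2 fold change -0.05, SE 0.11, adjusted p = 0.828) and did not separate the groups. *Nr2f2* was at 11.2 and 4.08 CPM in the wild-type cultures and 12.4, 12.3 and 11.1 CPM in the knockout cultures (log2 fold change 0.65, SE 0.38, adjusted p = 0.369). Wild-type replicate 1 lay within the narrow range of the knockout cultures and wild-type replicate 2 below it. Without wild-type replicate 1 the *Nr2f2* log2 fold change was 1.55 with an adjusted p of 0.00741, and over all alternatives the adjusted p lay between 0.00741 and 0.832. *Zbtb20* was at 110.4 and 134 CPM in the wild-type cultures and 117, 94.2 and 93.7 CPM in the knockout cultures (log2 fold change -0.27, SE 0.13, adjusted p = 0.279), lower on average in knockout cultures, with knockout replicate 1 inside the wild-type range. *Meis2* was at 14.1 and 21.0 CPM in the wild-type cultures and 12.4, 22.6 and 14.6 CPM in the knockout cultures (log2 fold change -0.09, SE 0.29, adjusted p = 0.894), and the knockout values enclosed those of the wild-type. In the annotation 6 of the 9 genes overlap a gene on the opposite strand, and reads of such partners cannot be told apart where counting did not use strand, which is not stated.

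**Figure D4:**
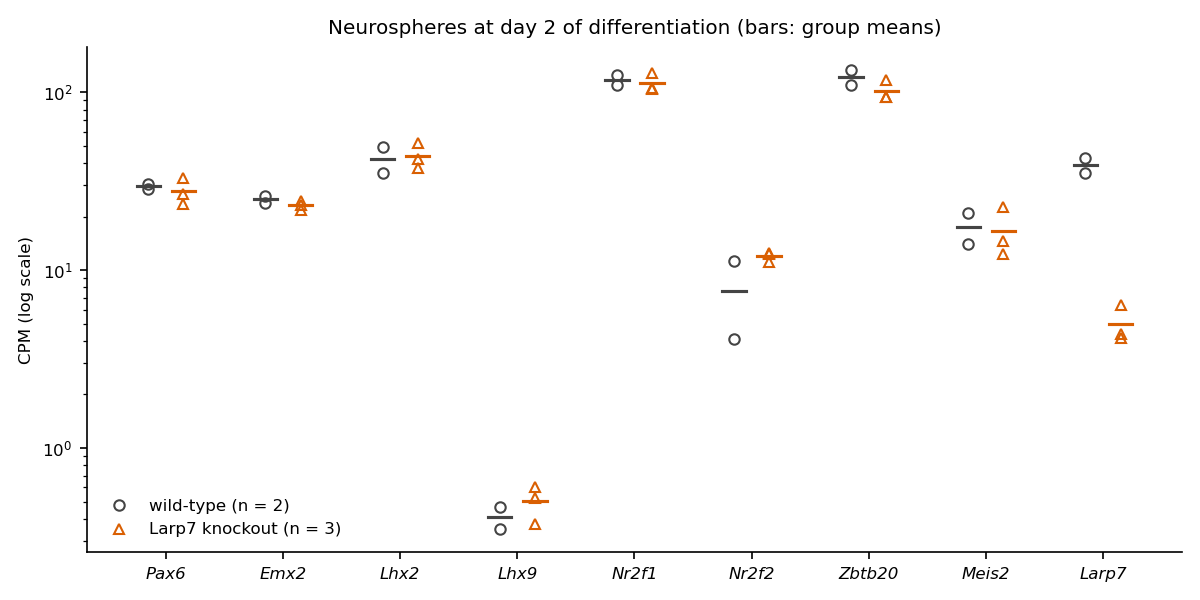
Normalised counts (CPM, log axis) of the 8 tested genes and *Larp7* in each neurosphere library, 2 wild-type and 3 *Larp7* knockout cultures, with 1 point per library and bars at the group means. *Larp7* alone separates the groups, and *Nr2f2* shows the wide gap between the wild-type cultures.

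Genes that act around these factors were read from the same fit. Of the cortical hem signals, the Wnt and BMP ligands and *Lmx1a*, 5 of 8 were tested and 0 were called by edgeR (2 with an unadjusted p under 0.05, 1 called by DESeq2). Of the pallial regulators, such as *Gli3*, 16 of 18 were tested and 0 called (3 with p under 0.05, 3 by DESeq2). The paralogs and cofactors gave 0 called of 7 tested of 9 (1 with p under 0.05, 0 by DESeq2). The subpallial regulators, which mark the ventral forebrain, gave 0 called of 5 tested of 9 (2 with p under 0.05, 1 by DESeq2). Median log2 fold changes were -0.35, 0.07, -0.08 and 0.19 in that order, against 0.01 over all genes. The groups did not overlap for 2 of 5 hem signals (*Wnt5a* and *Bmp4*), 6 of 16 pallial regulators, 2 of 7 paralogs and cofactors and 2 of 5 subpallial regulators (*Gsx1* and *Gsx2*), beside 42.6% of all genes. These genes were named after their values were seen. *Wnt5a*, a hem ligand, was at 86.6 and 72.3 CPM in the wild-type and 59.1, 50.4 and 55.8 CPM in the knockout cultures (edgeR adjusted p = 0.0972). *Gsx1*, a ventral homeobox gene, was at 14.0 and 10.2 CPM in the wild-type and 24.6, 32.9 and 35.2 CPM in the knockout cultures (edgeR adjusted p = 0.0933).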

How the data were processed

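The single-cell files hold raw UMI counts for every gene in every barcode, which the authors obtained from 10x Genomics 3′ libraries using Cell Ranger. No source used here names the genome build of these files. The deposited neurosphere values are read counts per gene, for which the methods name Minimap2 and the Ensembl mouse transcriptome. That table has 10 columns, of which 5 matched the labels and 5 were not used. ATAC-seq and CUT&Tag samples were not analysed here.

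Cells were kept if over 500 genes were detected and under 15% of UMIs were mitochondrial (10997, 6685 and 6531 of 12876, 7177 and 6821 barcodes; 28918491, 26689878 and 28537738 UMIs in all). They were gated with 15 marker panels of 153 genes, with ties left ungated and doublets kept; leaving out cells that met unrelated gates was an alternative. UMIs were summed per class and library, with exact Poisson intervals for levels, exact conditional intervals for ratios and exact binomial intervals for shares (95%). Neurosphere counts were tested with edgeR 4.0.16 (TMM, filterByExpr, quasi-likelihood, Benjamini-Hochberg threshold 0.05, R 4.3.3, limma 3.58.1), with DESeq2 1.42.0 as an alternative. Symbols came from the annotation of GRCm38.p6, which named 39373 of 40814 genes. The biological coefficient of variation came to 19.4%. Replicate libraries differed beyond sampling noise (chi-square over degrees of freedom, 20.1 to 66.1) and were treated as separate samples. Python 3.11.15, numpy 2.4.6, scipy 1.17.1, pandas 2.3.3 and matplotlib 3.10.9 were used. The steps were tested on simulated data.

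All 9 genes were named in each comparison, together with *Larp7*, the 3 genes most alike in profile to each and counts of 4 lists of related genes. The genes, markers and lists were chosen with earlier results of these data known. Promoter sequences were taken from RefSeq, and all 9 genes matched. Values of some genes of the related lists are not reported here.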

Additional observations from a re-analysis of the deposited data

Results flagged for a closer look

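In neuroblast-gated cells *Emx1* moved in opposite directions in the mutant libraries, with a log2 ratio to wild-type of 0.16 in the nestin-Cre and -0.62 in the Emx1-Cre library, and both counting intervals left out no change. In nIPC-gated cells *Nr2f1* did the same on a smaller scale, at 0.13 in the nestin-Cre and -0.11 in the Emx1-Cre library. Each genotype had 1 library, so neither difference was tested. The *Emx1* value of the nestin-Cre library was 0.067 in cells thinned to 1500 UMIs with their gate kept and -0.02 in thinned cells gated again. The rule that picked out opposite directions was set after values were seen.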

How the results depend on the processing

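Single-cell values were recomputed with a gate at 4 markers, without the filter on cells, without cells of unrelated lineages and as a mean over cells. Cells were also thinned to 1500 UMIs and gated again or, chosen after seeing the data, thinned with their gate kept. The values were ratios to wild-type in RGL-, nIPC- and neuroblast-gated cells, *Emx1* ratios between the mutants there, neuroblast over RGL means, and counts of genes. A ratio between libraries moved when it left its counting interval. Means were judged by the SD over libraries and counts by a 1.5-fold change. Of the ratios that passed the rule of size, *Meis2* in nIPC-gated cells of the Emx1-Cre library changed sign with the gate kept, at -0.010 on the log2 scale. By setting, 18 of 70 values moved with thinning and a new gate, 14 beside *Meis2* with thinning and the gate kept, 9 with means over cells and 2 with the gate at 4 markers. The *Emx1* ratio of the Emx1-Cre library in neuroblast-gated cells (-0.62 on the log2 scale) was -0.51 as a mean over cells, under 1.5-fold. Of 36 pairs of gene and class, 2 or 3 passed the rule of size in nestin-Cre over wild-type, 5 or 6 in Emx1-Cre over wild-type and between 5 and 7 in Emx1-Cre over nestin-Cre, but the pairs changed. Of the 2, 5 and 6 pairs passing in these comparisons, 0, 4 and 3 also passed in thinned cells gated again, 1, 4 and 4 in thinned cells with their gate kept and 1, 4 and 5 as means over cells. With the other settings every one of them passed. *Nr2f2* in neuroblast-gated cells of the nestin-Cre library passed in thinned cells under both gates, and *Pax6* there passed as a mean over cells. The number of genes with 1 highest class in all libraries lay between 7 and 9. In neurospheres the number of genes called, 6, was 3 with no filter on low counts, 1785 with DESeq2 and between 0 (without knockout replicate 3) and 1905 (without wild-type replicate 1) when 1 library was left out. Leaving out a wild-type library leaves 1, which is then assumed to vary like the knockout libraries. Of the 9 genes, between 0 and 1 was called when 1 library was left out. When 1 library was left out the log2 fold change ranged from -0.23 to 0.012 for *Pax6*, -0.17 to 0.31 for *Lhx2*, -0.15 to 0.049 for *Nr2f1*, -0.38 to 0.23 for *Meis2* and 0.10 to 1.55 for *Nr2f2*. Their causes were not tested.

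The neurosphere libraries share only the replicate numbers 1 and 2, and deviations of same-numbered libraries were correlated at -0.005 and 0.093, so the numbers were not taken as pairs. With the replicate block 0 genes were called, and the log2 fold changes of *Pax6* and *Lhx2* were 0.0050 and -0.067. Lowly counted genes such as *Lhx9* in cultures and *Meis2* in the granule lineage are limited by depth.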

Other observations

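The lists of related genes were also read in the gated cells, by the same rule of size, and the genes named here were picked after their values were seen. Of the pallial regulators, 2 of 13 measured were higher in RGL-gated cells of the nestin-Cre library over wild-type (*Gli3* and *Otx1*) and 1 of 13 in the Emx1-Cre library (*Gli3*), beside 10.4% and 6.15% of all genes in either direction. *Gli3*, a mediator of hedgehog signalling, was at 56.6, 99.2 and 91.1 CPM in the wild-type, nestin-Cre and Emx1-Cre libraries. In nIPC-gated cells 2 of 12 were higher in the nestin-Cre (*Lmo4* and *Tcf7l2*, 11.0% of all genes) and 1 of 13 in the Emx1-Cre library (*Lmo4*, 6.34%). In neuroblast-gated cells *Bcl11b* and *Lmo4* were higher in both mutant libraries over the wild-type library they share, *Otx1* was higher in the nestin-Cre library and *Dmrta2* lower in the Emx1-Cre library, out of 12 measured and beside 19.8% and 12.4% of all genes. In astrocyte-gated cells, out of 14 measured, *Gli3* and *Dmrt3* were higher and *Sp8* lower in the nestin-Cre library (9.12% of all genes), and *Dmrt3* was higher in the Emx1-Cre library (6.17%). The hem signals, of which between 1 and 3 of 8 had enough UMIs in a class, gave 0 in any of the 4 classes. Among paralogs and cofactors, *Nr2f6* was lower in RGL-gated cells of the nestin-Cre library, and among subpallial regulators *Ebf1* was lower in neuroblast-gated cells of both mutants and *Foxp1* higher in the nestin-Cre library.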
